A study of Mus musculus with 6 samples.

Results

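Ribosome biogenesis and nucleolar genes were followed through a time course of mouse adipose-derived mesenchymal stem cells kept in osteogenic medium. The set was drawn by gene symbol: the Nop, Nol, Utp, Rrp and Exosc families, RNA polymerase I subunits, Imp3 and Imp4, the core snoRNP proteins, nucleolin, nucleophosmin and a few named assembly factors. A probe also had to be detected on at least 1 array, which means a detection p under 0.01. Of 54 matching genes 53 met this, out of 8881 genes tested in all, and 49 of the 53 were detected on all 6 arrays. Exosc9 was detected on none and is not described further. Nol4 and Nol7 were each detected on 1 array, Nol9 on 4 and Npm1 on 5. The symbols Dkc1, Npm3, Rrs1 and Wdr12 matched no named probe and were not analysed here.

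The cells came from the dorsal and inguinal fat of mice of the C57BL/6 strain, and total RNA was labelled with biotin for Illumina bead arrays. After growth in medium with 10% FBS they received an osteogenic medium with 15% FBS, 0.4% DMSO, 0.1 µM dexamethasone, 50 µM L-ascorbic acid and 10 mM β-glycerophosphate. RNA was taken on days 0, 1, 3, 6, 10 and 14, with 1 array for each day and no replicate. No array of cells kept without the osteogenic medium was analysed here, so the effect of the medium and that of time in culture cannot be told apart. Levels are background-corrected, quantile-normalized log2 intensities of the brightest probe of each gene, and they serve to compare days, not genes. The arrays held 27.7 to 30% of probes as detected, and the deposited median signal lay between 126.8 and 141.3, highest on day 1. Of 12 mesenchymal stromal markers 10 had a named probe, and all 10 were detected on at least 1 array.

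A ribosome is made in the nucleolus. RNA polymerase I transcribes the ribosomal DNA into 1 long precursor, small nucleolar ribonucleoproteins (snoRNPs) guide methyl groups and pseudouridines onto it, and assembly factors and nucleases cut and fold it into the 40S and 60S subunits. Transcription of this machinery is known to follow growth and division of the cell, and MYC is a well known activator of many of its genes.

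Most of the 53 genes shared the course of the first 6 days, with a peak on day 1 and lower levels on days 3 and 6, and fewer of them stayed below all their early levels to day 14. The highest of the 6 levels was that of day 1 for 39 genes, which is 73.6% of them, against 23.8% of all tested genes. The lowest was that of day 6 for 21 genes (39.6%, against 9.66% of all tested genes) and that of day 14 for 17 (32.1%, against 14.2%). The sequence of a higher level on day 1, a lower one on day 3 and a still lower one on day 6 was seen in 38 genes, or 71.7%, against 20.4% of all tested genes. Levels on days 6, 10 and 14 all lay below those on days 0, 1 and 3 for 26 genes, or 49.1%, against 27.6%, and 25 genes had both features (47.2%, against 15%). The opposite order, late levels above early ones, held for Imp3, Nol4, Nol4l and Nop53, 7.55% of the set against 27% of all tested genes, but Nol4 was below detection on all arrays except day 14 and its order is that of undetected levels. Among the 49 genes detected on all 6 arrays 37 were highest on day 1 (75.5%, against 24.1% of all genes so detected), 25 had late levels below early ones (51%, against 28%) and 3 the opposite (6.12%, against 25.2%). Cell cycle genes moved on the same days (all 28 tested were highest on day 1), and their part in this course was not tested. In RNA of a whole culture fewer cells of a type and less RNA per cell cannot be told apart.

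**Figure D1:**
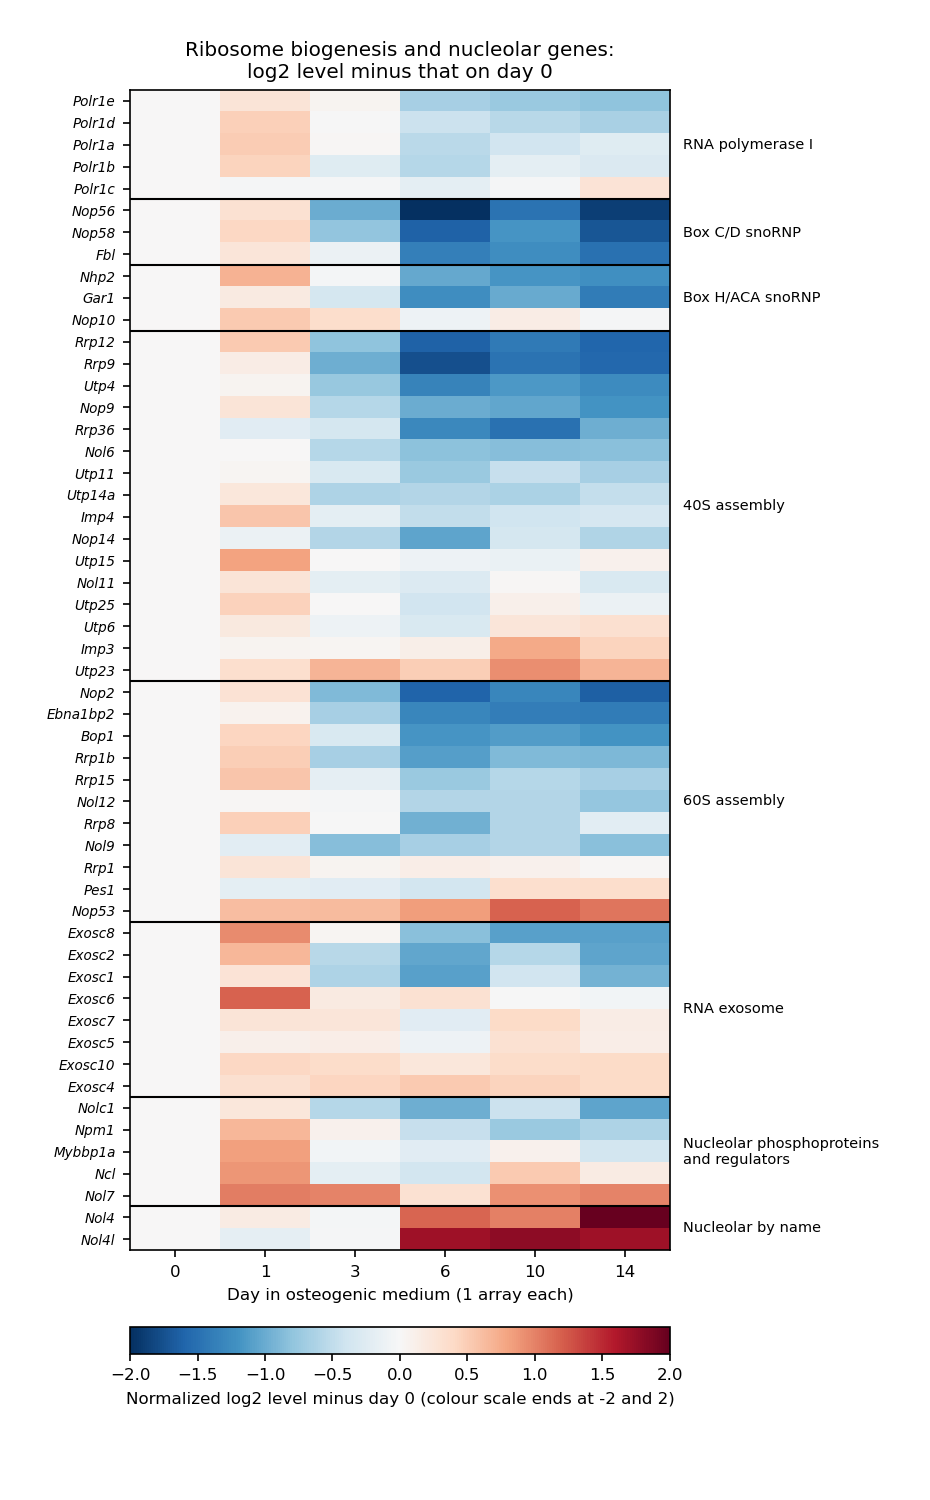
Normalized log2 level of each of the 53 genes on each day minus its level on day 0, in colour, with genes in rows grouped by role and days in columns, 1 array per day. Most rows are red or pale on day 1 and blue from day 6, while Nol4, Nol4l and Nop53 are red from day 6. Nol4, Nol7, Nol9 and Npm1 were below detection on some of these arrays.

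**Figure D2:**
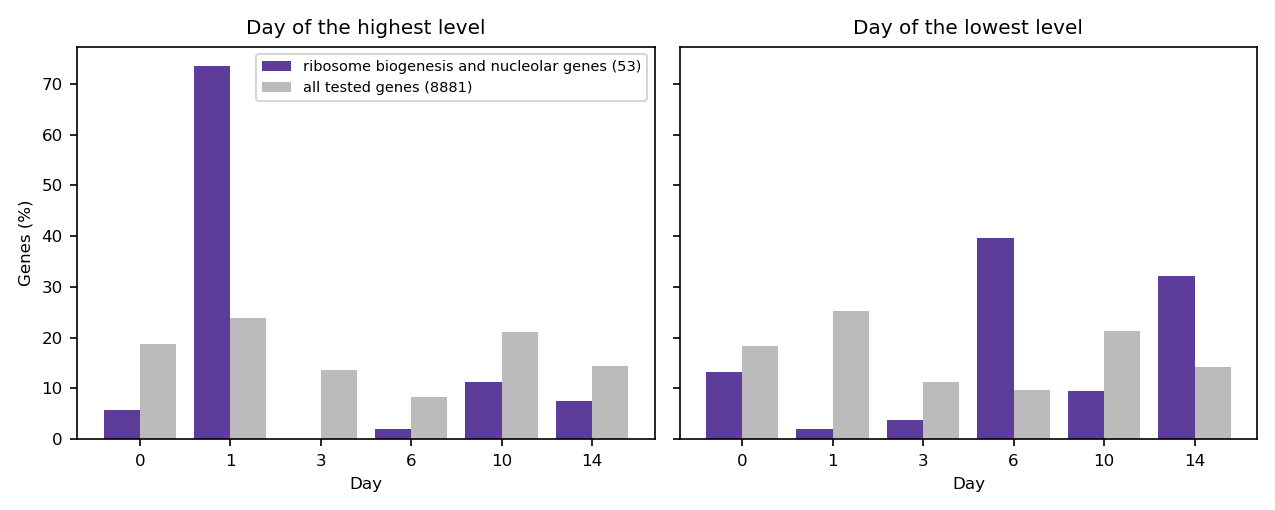
Percentage of genes (vertical axis) whose highest level (left) or lowest level (right) was on each day (horizontal axis), for the 53 ribosome biogenesis and nucleolar genes in purple and the 8881 tested genes in grey. The purple bar for the highest level on day 1 reaches 73.6%, and the purple bars for the lowest level stand at 39.6% on day 6 and 32.1% on day 14.

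MYC and its relatives bind the E-box CACGTG, so the promoters of these genes were read for it. The window ran from 250 bases before to 50 after the start in RefSeq (GRCm38.p6), and the word reads the same on both strands. A promoter was matched for 42 of the 53 genes, and 8 of the 42 held the E-box (19%), against 12.1% of tested genes and 8.09% of all genes with a promoter in the table. The 8 were Exosc5, Imp4, Mybbp1a, Nol11, Nop2, Pes1, Utp25 and Utp4. Of 15 genes with a promoter whose level fell along the course 2 held it (13.3%), and of 26 without a call 6 did (23.1%). The promoters of Nop2, Pes1 and Nop56 are shown because they pair the word with different courses. Nop2 fell and holds the word in capitals at position -60, counted with the start as 0, Pes1 passed no test and holds it at position 2, and Nop56 had the steepest fall and holds none in this window.
Nop2 promoter, chr6:125131633-125131932, plus strand, GRCm38.p6: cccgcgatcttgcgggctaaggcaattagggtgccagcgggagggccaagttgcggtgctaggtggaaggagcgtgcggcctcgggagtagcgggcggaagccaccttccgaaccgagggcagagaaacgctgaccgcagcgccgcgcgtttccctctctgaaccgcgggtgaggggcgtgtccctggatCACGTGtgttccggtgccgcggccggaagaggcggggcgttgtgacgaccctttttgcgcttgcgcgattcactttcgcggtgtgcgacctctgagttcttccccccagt
Pes1 promoter, chr11:3963725-3964024, plus strand, GRCm38.p6: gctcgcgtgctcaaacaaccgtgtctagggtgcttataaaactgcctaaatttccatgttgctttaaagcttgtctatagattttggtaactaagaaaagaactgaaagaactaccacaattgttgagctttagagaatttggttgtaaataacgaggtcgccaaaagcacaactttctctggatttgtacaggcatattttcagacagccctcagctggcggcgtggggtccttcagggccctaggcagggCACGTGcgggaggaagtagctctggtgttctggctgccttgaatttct
Nop56 promoter, chr2:130274162-130274461, plus strand, GRCm38.p6: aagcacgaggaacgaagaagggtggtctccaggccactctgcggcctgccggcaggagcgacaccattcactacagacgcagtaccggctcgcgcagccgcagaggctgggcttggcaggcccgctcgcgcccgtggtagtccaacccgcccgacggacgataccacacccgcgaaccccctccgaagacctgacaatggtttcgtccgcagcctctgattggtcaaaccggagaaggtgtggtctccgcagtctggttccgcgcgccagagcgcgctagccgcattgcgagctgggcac

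The trend of each gene was measured as a slope of log2 level on log2(day + 1) through the 6 arrays, with limma and a Benjamini-Hochberg adjustment over all 8881 tested genes. Of the 53 genes 20 fell, 3 rose (Nop53, Nol4l and Nol4, the last of them detected on day 14 only) and 30 passed in neither direction at an adjusted p of 0.05. Over all tested genes 17.7% fell and 18.5% rose, so falls were about as common as rises in the whole table and were 37.7% against 5.66% in this set. The median slope was -0.19 for the set and 0 for all tested genes, and 40 of the 53 slopes (75.5%) lay below 0, against 50.1% of all. The number of calls leans most on the late arrays: without day 14, 3 genes fell (Ebna1bp2, Rrp9 and Utp4) and 0 rose, where 4.85% of all tested genes fell and 6.64% rose. The median slope of the set was -0.204 without day 14 and -0.193 with all 6 arrays. Without day 0, 22 genes fell and 2 rose (17.8% and 18.5% of all tested genes). Without day 10 the counts were 10 fallen and 0 risen (7.2% and 8.65% of all tested genes), and without day 6 they were 13 and 2 (11.9% and 12.6%). Leaving out day 1 gave 15 and 2 (13.3% and 14.8%), and leaving out day 3 gave 18 and 3 (17.5% and 18.7%). With median scaling the calls of Exosc8, Nol12, Polr1d, Polr1e, Rrp1b and Utp11 were lost, and 14 genes fell (13.2% of all tested genes) and 3 rose (19.4%). None of the 23 called slopes changed sign when any of the 6 arrays was left out. A change of sign was unlikely in genes called on these same arrays, so this is no separate sign of stability. Of the 23 calls 3 passed in all 6 such fits. Before adjustment, 25 genes had a limma p under 0.05 with a slope below 0 and 5 with a slope above it, against 23.8% and 24.7% of all tested genes, the additions being Exosc1, Exosc2, Nolc1, Npm1 and Rrp15 below and Imp3 and Utp23 above. A straight line takes the day 1 peak as error, so a gene can have the common course and no call.

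**Figure D3:**
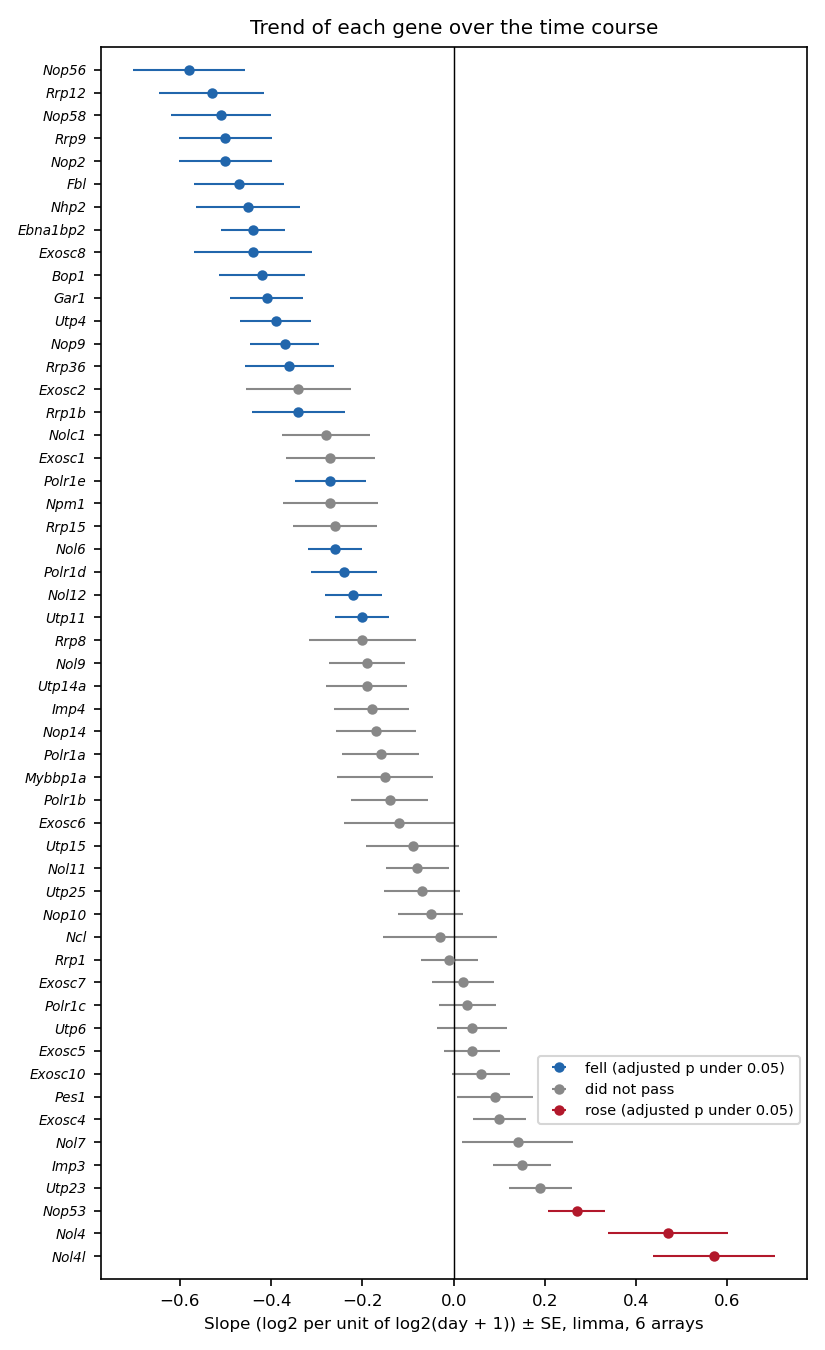
Slope of each of the 53 genes on log2(day + 1) with its standard error (horizontal axis, log2 per unit of log2(day + 1)), from limma over 6 arrays. The 20 blue genes fell, the 3 red ones rose and the grey ones did not pass an adjusted p of 0.05.

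Among the 5 RNA polymerase I subunits 2 fell, 0 rose and 3 did not pass, with a median slope of -0.16. Polr1e, the subunit known as PAF53 that helps the enzyme onto the promoter, stood at 10.58, 10.84, 10.64, 9.91, 9.83 and 9.77 on days 0, 1, 3, 6, 10 and 14. Its levels on the last 3 arrays lay 0.67 below the lowest of the first 3, and its slope was -0.27 ± 0.0783 (SE, adjusted p = 0.0325). Polr1d, a small subunit shared with RNA polymerase III, measured 12.90, 13.37, 12.89, 12.47, 12.34 and 12.25 in the same order. It was highest on day 1 and lowest on day 14, and its slope was -0.24 ± 0.073 (adjusted p = 0.0418). The other probes of Polr1d gave other slopes: ILMN_1245284, detected on 5 arrays, had a slope of 0.24, and ILMN_2680066, detected on all 6, one of -0.06. ILMN_1245284 is annotated to another transcript of the gene than the brightest probe and ILMN_2680066. The mean of the detected probes thus mixes transcripts. Both calls of this group were lost without each of the arrays of days 1, 6, 10 and 14, and that of Polr1d also without day 3. Both were lost as well with median scaling (adjusted p = 0.0716 for Polr1e and 0.085 for Polr1d), with no scaling (0.066 and 0.0784) and with a quadratic term (0.0674 and 0.0722), and Polr1d also with the mean of its detected probes (0.851) and without the intensity trend (0.0557).

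The 2 large subunits that form the catalytic core shared the early peak. Polr1a read 11.30, 11.80, 11.32, 10.76, 10.92 and 11.06 from day 0 to day 14, and its other probes ILMN_1230860 and ILMN_2620069 had slopes of -0.25 and -0.15 beside its own -0.16. Polr1b was at 10.28, 10.73, 10.04, 9.71, 10.09 and 9.99. Both were highest on day 1 and lowest on day 6, where Polr1a was 2.07-fold and Polr1b 2.03-fold below day 1. Polr1c, the other subunit shared with RNA polymerase III, was at 10.45, 10.42, 10.42, 10.26, 10.42 and 10.73. Its day 14 level was the highest of the 6 and its slope was 0.03 ± 0.0621 (adjusted p = 0.707).

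All 3 box C/D proteins fell, with slopes between -0.58 and -0.47. These proteins form the particle that methylates the ribose of ribosomal RNA. Nop56, a scaffold of the particle, had deposited signals of 2221, 3331, 1249, 644.8, 969.6 and 720.5 on days 0, 1, 3, 6, 10 and 14. On the normalized log2 scale these became 11.18, 11.49, 10.18, 9.15, 9.71 and 9.30. The last 3 arrays did not overlap the first 3, day 6 was the lowest point at 4.08-fold below day 0 and 5.05-fold below day 1, and the slope was -0.58 ± 0.122 (adjusted p = 0.0133). Nop58, the partner scaffold, measured 13.08, 13.50, 12.29, 11.47, 11.90 and 11.37. It was 3.27-fold below day 0 on day 14, and its slope was -0.51 ± 0.109 (adjusted p = 0.0136).

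Fibrillarin (Fbl), the methyltransferase of the same particle, stood at 12.88, 13.12, 12.77, 11.51, 11.64 and 11.39. Fbl was near its day 0 level on day 3 and 2.40-fold below that of day 3 on day 6, the greatest such difference of the set at that step, whereas Nop56 and Nop58 were already 2.47-fold and 2.32-fold lower on day 3 than on day 1. Its slope was -0.47 ± 0.0992 (adjusted p = 0.0136). The 3 box C/D calls held when any one of days 0, 1, 3, 6 and 10 was left out. Without day 14 the adjusted p was 0.0555 for Nop56, 0.0646 for Nop58 and 0.0663 for Fbl, each the highest over all the alternatives tried for that gene, and the lowest were 0.0183, 0.0144 and 0.00898 with another array left out.

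Of the 3 box H/ACA proteins, which belong to the particle that makes pseudouridine, Nhp2 and Gar1 fell and Nop10 did not pass. Nhp2, an RNA-binding core protein, was at 11.74, 12.44, 11.70, 10.72, 10.56 and 10.52. It was 1.63-fold above day 0 on day 1 and 2.33-fold lower on day 14 than on day 0, with a slope of -0.45 ± 0.114 (adjusted p = 0.0229). Gar1, which helps substrate loading and release, read 13.05, 13.23, 12.70, 11.81, 12.04 and 11.65. All its late levels lay at least 0.66 below the early ones, and its slope was -0.41 ± 0.08 (adjusted p = 0.011), with -0.54 for its other probe ILMN_1230063, detected on 4 arrays.

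Nop10, the smallest of the core proteins, stood at 12.69, 13.22, 13.04, 12.59, 12.84 and 12.67. It shared the day 1 peak, but its day 14 level was 1.01-fold below that of day 0, and its slope was -0.05 ± 0.0711 (adjusted p = 0.581). Without day 14 neither Nhp2 nor Gar1 passed (adjusted p = 0.09 and 0.0598, the highest over their alternatives), and Nhp2 was also lost without day 10.

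**Figure D4:**
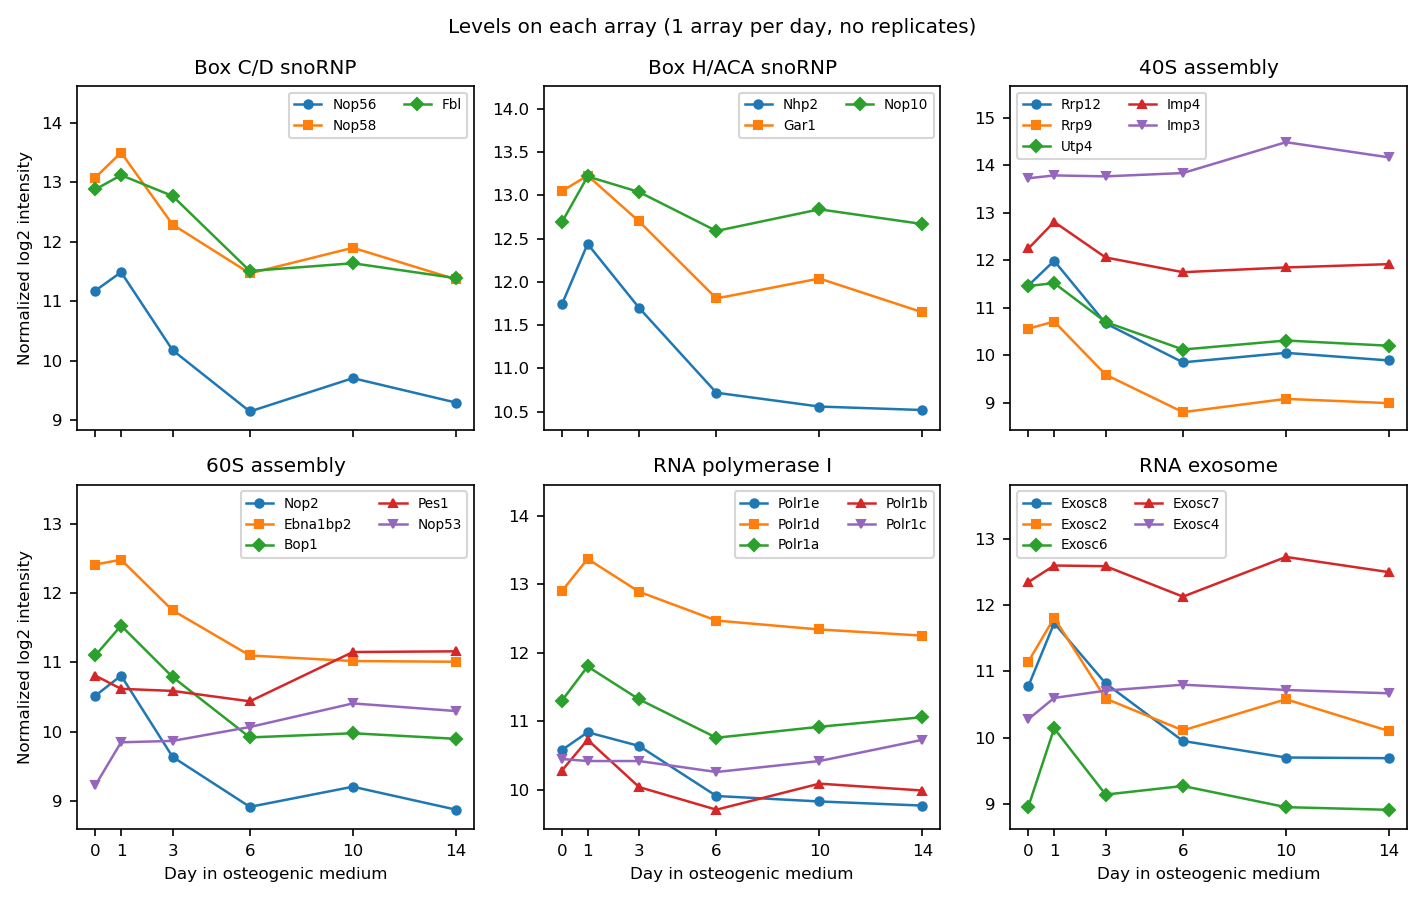
Normalized log2 intensity (vertical axis, a different range in each panel) on each day in osteogenic medium (horizontal axis) for selected genes of 6 roles, with 1 point per array and no replicates. The lines of Nop56, Nop58, Fbl, Nhp2, Gar1, Rrp12, Rrp9, Nop2 and Bop1 peak on day 1 and stay low from day 6, while those of Imp3, Pes1 and Nop53 are higher on days 10 and 14 than on day 0.

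In the group of 16 factors of the small subunit processome and of 40S assembly 7 fell, 0 rose and 9 did not pass, with a median slope of -0.19. Rrp12, an assembly factor that in yeast also serves export of the subunit, measured 11.47, 11.99, 10.67, 9.85, 10.05 and 9.89. Day 3 was 2.50-fold below day 1, the greatest such difference of the set at that step, day 14 was 3.00-fold below day 0, and the slope was -0.53 ± 0.115 (adjusted p = 0.0144). Rrp9, a protein of the U3 snoRNP, stood at 10.56, 10.71, 9.59, 8.80, 9.08 and 8.99. Day 6 was 3.39-fold below day 0, and the slope of -0.50 ± 0.101 (adjusted p = 0.0118) passed in every alternative fit tried, with the highest adjusted p at 0.0461. Utp4, a subunit of the complex that binds the 5′ end of the precursor, read 11.46, 11.52, 10.70, 10.12, 10.31 and 10.20. Its slope was -0.39 ± 0.0782 (adjusted p = 0.0118), and it too passed in every fit, at 0.0483 or less.

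Nop9, Rrp36, Nol6 and Utp11, all processome factors described in yeast or human cells, made up the other falls, with slopes of -0.37, -0.36, -0.26 and -0.20. Utp11 lost its call without any 1 of the 6 arrays, and Rrp36 kept it only without day 3. The levels of Rrp36 on days 6 and 10, 7.16 and 6.95, lay near the lowest detected levels there, 6.91 and 6.87. Imp3 and Imp4 belong to the same complex with Mphosph10. Imp4 stood at 12.25, 12.81, 12.06, 11.75, 11.85 and 11.92, with all late levels below the early ones, and its other probe ILMN_2724643 had a slope of -0.22 beside its own -0.18 ± 0.0819 (adjusted p = 0.122). Imp3 stood at 13.73, 13.79, 13.77, 13.84, 14.49 and 14.17. It was 1.57-fold above day 6 on day 10, its slope was 0.15 ± 0.0627 (adjusted p = 0.095), and its other probe ILMN_1243632, detected on all arrays, had a slope of 0.18. The difference between the Imp3 and Imp4 slopes was not tested.

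Utp23 and Utp6 also had slopes above 0 in this group. Utp23, which in yeast acts in release of the snR30 snoRNA, was at 8.37, 8.71, 9.05, 8.86, 9.30 and 9.05, above day 0 on all later arrays, with a slope of 0.19 ± 0.069 (adjusted p = 0.0698). Utp6, of the U3-associated UtpB complex, was at 10.47, 10.66, 10.37, 10.16, 10.71 and 10.79, with a slope of 0.04 ± 0.0763 (adjusted p = 0.701) that turned below 0 without day 14. The remaining factors, Utp14a, Nop14, Utp15, Nol11 and Utp25, had slopes between -0.19 and -0.07 and no call. Utp15, a partner of Utp4 in its complex, was 1.74-fold above day 0 on day 1, and its later levels of 7.58, 7.47, 7.44 and 7.66 lay close to the 7.57 of day 0.

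For the 11 genes of 60S assembly 5 fell, 1 rose and 5 did not pass, with a median slope of -0.22. Nop2, which methylates a cytosine of the large ribosomal RNA, stood at 10.52, 10.81, 9.64, 8.92, 9.21 and 8.88. Day 14 was 3.11-fold below day 0, and the slope was -0.50 ± 0.101 (adjusted p = 0.0118), with -0.38 for its other probe ILMN_2608229, detected on 2 arrays. Ebna1bp2, the counterpart of yeast Ebp2, was at 12.41, 12.48, 11.75, 11.10, 11.02 and 11.01. All late levels lay at least 0.65 below the early ones and the slope was -0.44 ± 0.0701 (adjusted p = 0.00671). Its dimmer probes did not share the slope: ILMN_1248210, detected on 4 arrays, had -0.08 and ILMN_2737008, detected on 2, had 0.16, and with the mean of the detected probes in place of the brightest one the call was lost (adjusted p = 0.385), while with 1 array left out the adjusted p lay between 0.00873 and 0.0338.

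Bop1 and Pes1 are partners in the PeBoW complex, which acts in processing of the large subunit precursor. Bop1 measured 11.10, 11.53, 10.79, 9.92, 9.98 and 9.90, so day 14 was 2.31-fold below day 0, and its slope was -0.42 ± 0.095 (adjusted p = 0.0169). Pes1 measured 10.81, 10.62, 10.59, 10.44, 11.15 and 11.16. It was lowest on day 6 and was 1.64-fold above day 6 on day 10, and its slope was 0.09 ± 0.0828 (adjusted p = 0.394). The difference between these slopes was not tested either, and Bop1 lost its call without day 10 (adjusted p = 0.057) or day 14 (0.0688), while its values with other arrays left out went down to 0.0102.

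Nop53, which in yeast recruits the exosome to the pre-60S particle, was the one assembly factor of the set that rose. Its levels were 9.23, 9.85, 9.87, 10.07, 10.41 and 10.30. Day 0 was the lowest and day 10 the highest, day 14 was 1.07 above day 0 on the log2 scale, and the slope was 0.27 ± 0.0623 (adjusted p = 0.0183). The call was lost without day 0, day 10 or day 14, with adjusted p-values from 0.0179 to 0.101 over the arrays left out. It was also lost with the slope on the day itself (adjusted p = 0.0605) and with a quadratic term (0.0615). Rrp1b and Nol12 fell with slopes of -0.34 and -0.22. The call of Rrp1b was lost without day 6, 10 or 14 and in 6 of 12 other settings, with adjusted p-values up to 0.121, and that of Nol12 without day 1, 6, 10 or 14 and in 3 of the 12, with values up to 0.15. Rrp15, Rrp8 and Nol9 had slopes of -0.26, -0.20 and -0.19 and no call. Rrp1, a processing factor known from yeast, showed next to no trend, at 8.46, 8.72, 8.52, 8.60, 8.54 and 8.48 with a slope of -0.01 ± 0.0626 (adjusted p = 0.919).

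The RNA exosome, the nuclease complex that trims the 3′ ends of precursors, had 8 measured genes, of which 1 fell, 0 rose and 7 did not pass, and its median slope was -0.05. Exosc8, a subunit of the barrel, stood at 10.78, 11.73, 10.82, 9.95, 9.70 and 9.69. It was 1.93-fold above day 0 on day 1 and 2.12-fold lower on day 14 than on day 0, with a slope of -0.44 ± 0.129 (adjusted p = 0.036) that passed no longer without day 6, 10 or 14 (0.0711, 0.105 and 0.125), with 0.00481 as the lowest when another array was left out. Exosc2, a cap subunit, was at 11.15, 11.81, 10.59, 10.11, 10.58 and 10.10 with a slope of -0.34 ± 0.114 (adjusted p = 0.0506). Exosc1, another cap subunit, was at 11.73, 12, 11.12, 10.65, 11.34 and 10.79 with a slope of -0.27 ± 0.098 (adjusted p = 0.0701). In all 3 day 1 was the highest array.

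Exosc6, a barrel subunit, had the largest ratio of day 1 over day 0 in the set, 2.26-fold. It read 8.96, 10.14, 9.14, 9.27, 8.95 and 8.91, so that day 1 stood alone and the later arrays lay near day 0, and its other probe ILMN_2630909 read 7.0, 8.49, 7.51, 7.70, 6.90 and 7.40. Exosc4, Exosc5, Exosc7 and the nuclease Exosc10 had slopes of 0.10, 0.04, 0.02 and 0.06, all without a call. Exosc4 stood at 10.28, 10.60, 10.71, 10.80, 10.72 and 10.67, above day 0 on every later array. Exosc7 stood at 12.35, 12.60, 12.59, 12.13, 12.73 and 12.50, with its low point on day 6 and its high point on day 10.

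None of the 5 nucleolar phosphoproteins, chaperones and regulators passed in either direction, though Ncl, Nolc1, Npm1 and Mybbp1a had their highest level on day 1, and Nol7 was below detection there. Their median slope was -0.15. Nucleolin (Ncl), which binds precursor RNA and chromatin of the ribosomal genes, stood at 10.67, 11.56, 10.48, 10.31, 11.20 and 10.83. It was 1.86-fold above day 0 on day 1, lowest on day 6 and 1.85-fold higher on day 10 than on day 6, the greatest upward difference of the set at that step, and its slope was -0.03 ± 0.125 (adjusted p = 0.881). The other nucleolin probe, ILMN_2693976, had the same 2 high points, at 10.07, 10.93, 9.79, 9.46, 10.55 and 10.16.

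Nolc1 (Nopp140), a chaperone of snoRNPs, was at 8.69, 8.92, 8.12, 7.71, 8.26 and 7.64 with a slope of -0.28 ± 0.0961 (adjusted p = 0.0579), and its other probe ILMN_1213494, detected on 4 arrays, had a slope of -0.53. Nucleophosmin (Npm1) was represented by a dim probe that was not well above background on day 10. Its level of 8.27 on day 1 was the highest, and day 10 was at least 2.64-fold lower than day 1. Mybbp1a, which binds MYB and takes part in nucleolar control of transcription, was 1.76-fold above day 0 on day 1 and had a slope of -0.15 ± 0.105 (adjusted p = 0.304). Nol7 was detected on day 14 alone and allowed no fold against any other array, and its slope of 0.14 ± 0.121 (adjusted p = 0.374) rests on levels below detection.

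The 2 genes that belong to the set by name only, Nol4 and Nol4l, both rose, and no role in ribosome production is assigned to them here. Nol4l measured 7.31, 7.13, 7.28, 9.01, 9.10 and 9.01. The first 3 arrays and the last 3 formed separate levels with a step of 3.30-fold between days 3 and 6, and the slope was 0.57 ± 0.134 (adjusted p = 0.0181), which was lost without day 10 (0.0641) or day 14 (0.0701) over a range of 0.0121 to 0.0701. The first 3 levels of Nol4l lay just above the lowest detected levels there (7, 6.94 and 6.88), so the size of its step is uncertain. Its folds over day 0 on days 6, 10 and 14 were 3.23, 3.46 and 3.25. The authors' deposited table has 2.35, 2.48 and 2.36. Nol4 passed detection through day 14 only, so that its being higher there follows in part from how it entered the set. Day 14 was at least 1.09-fold higher than day 0, and the slope over levels mostly below detection was 0.47 ± 0.132 (adjusted p = 0.0319). Without both genes 1 gene of the set rose and 20 fell.

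Against day 0, single arrays were compared by fold with no test, and all these comparisons share the day 0 array. On day 1 the level was at least 1.5-fold higher for 9 of 51 genes detected on either array (17.6%, against 11.9% of all genes so detected) and lower for 0 (against 11.3%). With differences of any size counted, 45 of 51 genes (88.2%) were higher on day 1 than on day 0, against 48.9% of all genes. Exosc6, Exosc8 and Ncl were highest above day 0, and Rrp36, Nol9 and Pes1 were 1.16-fold, 1.15-fold and 1.14-fold below it. On day 3 the count was 12 lower and 2 higher (12.7% and 16.1% of all genes), on day 6 it was 27 lower and 2 higher of 51 (22.3% and 23.3%), on day 10 it was 21 lower and 4 higher (26.2% and 26.4%), and on day 14 it was 27 lower and 5 higher of 53 (24.8% and 26.4%). The 5 higher on day 14 were Nop53, Utp23, Nol4l, Nol4 and Nol7, but Nol4 and Nol7 were below detection on day 0. With folds taken as bounds against the lowest detected level of an array they dropped out, which left 3, where 23.2% of all genes were higher. Levels at least 2-fold lower than on day 0 numbered 17 on day 6 (11.1% of all genes), 14 on day 10 (15.1%) and 15 on day 14 (14%). The median of the set relative to day 0 was 0.29, -0.11, -0.59, -0.43 and -0.59 on days 1, 3, 6, 10 and 14, on the log2 scale, where the median of all tested genes stayed between -0.02 and 0.02.

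The size of the day 1 peak depends on the scaling of that array, though its direction does not. With median scaling in place of quantile normalization 22 genes of the set were at least 1.5-fold higher on day 1 than on day 0, and with no scaling 27, while 20.4% and 23.3% of all genes were then higher as well. The median of all genes was shifted by 0.18 and 0.23 in these settings, and the set lay 0.37 above it in both, against 0.30 with quantile normalization. The number of genes with their highest level on day 1 was 41 and 43 in the same settings, against 32.2% and 37% of all tested genes.

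Step by step, the set moved in a body over the first 6 days. Day 3 was lower than day 1 for 46 of 51 genes (90.2%, against 49.4% of all genes), at least 1.5-fold for 24 (47.1%, against 15.3%, and 23 with bounds, without Nol9), and at least 1.5-fold higher for 0 (against 18.3%). Rrp12, Nop56 and Exosc2 were lower by the most, at 2.50-fold, 2.47-fold and 2.33-fold, while Utp23, Nol4l and Exosc4 were 1.26-fold, 1.11-fold and 1.07-fold higher. Day 6 was lower than day 3 for 43 of 50 genes (86%, against 51.9%), at least 1.5-fold for 14 (28%, against 14.6%), led by Fbl, Nop56 and Nhp2 at 2.40-fold, 2.04-fold and 1.97-fold. Nol4l, Nop53 and Exosc6 were the most upward at this step, at 3.30-fold, 1.15-fold and 1.10-fold.

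After day 6 the direction turned for a while. Day 10 was higher than day 6 for 37 of 51 genes (72.5%, against 50.8% of all genes), at least 1.5-fold for 6 of them (11.8%, against 6.39%), and at least 1.5-fold lower for 0 (against 11.2%). Ncl, Pes1 and Nop14, a processome factor, were higher by the most, at 1.85-fold, 1.64-fold and 1.63-fold, while Exosc6, Exosc8 and Rrp36 were 1.25-fold, 1.19-fold and 1.15-fold lower. Day 14 was lower than day 10 for 39 of 53 genes (73.6%, against 49.4%), but by measured levels 1 gene in each direction passed 1.5-fold (against 2.07% lower and 4.53% higher). The lower one was Nolc1, at 1.53-fold, followed by Exosc1 and Nop58 at 1.46-fold and 1.45-fold. The higher one was Nol4, below detection on day 10, whose bound of at least 1.19-fold does not reach 1.5-fold, so that with bounds 0 genes were higher (against 3.63%). Among genes detected on both arrays Rrp36, Rrp8 and Polr1c were 1.43-fold, 1.30-fold and 1.24-fold higher. The median steps of the set were 0.29, -0.53, -0.44, 0.20 and -0.09 on the log2 scale.

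The authors' deposited table of folds over day 0, made from the same 6 arrays, gave similar or lower counts of falls for the same probes. At 2-fold, 12, 11 and 13 genes were lower on days 6, 10 and 14 there, against 17, 14 and 15 here. In the authors' deposited table, of the 53 genes, 0, 9, 24, 17 and 24 were at least 1.5-fold below day 0 on days 1, 3, 6, 10 and 14, and 6, 0, 3, 5 and 3 were as much above it. Over all rows of the authors' deposited table the shares on those days were 5.47, 7.77, 15.9, 19 and 18.5% lower and 6.26, 8.45, 14.8, 19 and 17.8% higher. For Nop56 the authors' deposited table lists a signed fold of -3.61 on day 6 and -3.31 on day 14, where a minus sign marks a fall.

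Other detected probes were looked at for 15 genes of the set, and of 18 such probes 3 had a slope of the opposite sign to the brightest probe or of 0.00: those of Ebna1bp2 and Polr1d given above, and ILMN_1258931 of Exosc10. None of the 8 such probes that were detected on all 6 arrays did so.

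Further assembly factors that the symbol rule did not name were counted in the same way. For this and the following lists, the shares of all tested genes were 17.7% fallen, 18.5% risen and 23.8% highest on day 1. Of 71 tested 34 fell and 2 rose, with a median slope of -0.21, and 51 were highest on day 1. Mrto4, a 60S factor related to the stalk protein P0, stood at 11.57, 12.12, 10.80, 9.80, 9.66 and 9.48, with a slope of -0.68 ± 0.117 (adjusted p = 0.00804). Treacle (Tcof1), a nucleolar partner of RNA polymerase I, stood at 11.50, 11.81, 10.71, 10.02, 10.05 and 9.76, with a slope of -0.53 ± 0.091 (adjusted p = 0.00795). Both were lower on each of days 3 to 14 than on days 0 and 1. Nip7 and Ppan, both 60S factors, fell with slopes of -0.44 and -0.43. The 2 that rose were Sbds, which acts in the last step of 60S maturation (slope 0.26, adjusted p = 0.0406), and Tsr2, a chaperone of a 40S protein in yeast (slope 0.43, adjusted p = 0.0272, detected on 3 arrays).

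Factors that work with RNA polymerase I gave 3 falls and 0 rises among 12 tested. Cd3eap, a further subunit of the enzyme, fell with a slope of -0.32 (adjusted p = 0.034), Polr2h, shared by all the nuclear RNA polymerases, with -0.21 (0.0257), and Rrn3, which brings the polymerase to the promoter, with -0.25 (0.0437). Rrn3 stood at 10.31, 10.76, 10.31, 9.87, 9.64 and 9.61. Ubtf, which opens the ribosomal gene repeats, was at 9.92, 10.11, 9.89, 10.05, 9.95 and 9.71, with a slope of -0.04 ± 0.0609 (adjusted p = 0.621). Taf1a, of the promoter selectivity factor, had a slope of 0.23 (adjusted p = 0.09).

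Of 8 tested genes of the MYC network 1 fell and 2 rose. Myc was at 7.51, 7.73, 7.80, 7.04, 7.70 and 6.99, highest on day 3 and lowest on day 14, with a slope of -0.11 ± 0.102 (adjusted p = 0.417). Mycn was not analysed here. Mxi1 and Mxd1, which compete with MYC for its partner MAX, rose: Mxi1 stood at 8.41, 7.75, 9.04, 10.27, 10.92 and 10.41 (slope 0.75 ± 0.149, adjusted p = 0.0115) and Mxd1 at 7.46, 6.95, 7.85, 8.83, 9.31 and 8.72 (slope 0.53 ± 0.129, adjusted p = 0.0207). Both were lowest on day 1 and highest on day 10. The Mxd1 level on day 1, 6.95, lay just above the lowest detected level there (6.94), so the size of its rise is uncertain. Myc on day 6, at 7.04, also lay near the lowest detected level of that array (6.91). Mxd3, of the same family, fell with a slope of -0.79 (adjusted p = 0.036) and was detected on 3 arrays.

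The smaller lists had few calls. Of 8 genes of snoRNP assembly and transport 1 fell, Ruvbl2, an ATPase of the R2TP chaperone (slope -0.40, adjusted p = 0.016), and its partner Ruvbl1 had a slope of -0.21 (0.0986), with -0.18 for Pih1d1 and -0.17 for Znhit3 (0.0687 and 0.325). Of 9 exosome cofactors and catalytic subunits 2 fell and 1 rose: Dis3, a catalytic subunit (slope -0.56, adjusted p = 0.0321, detected on 3 arrays), Mphosph6, a nuclear cofactor (-0.49, 0.00456), and Skiv2l, a helicase of the cytoplasmic exosome, which rose (0.25, 0.0213). Xrn1, a cytoplasmic exonuclease, had a slope of 0.19 (adjusted p = 0.137). Of 10 genes of nucleolar stress and p53 control Mdm2 fell (slope -0.16, adjusted p = 0.0317) and Cdkn2a rose (0.57, 0.0265), while Gnl3, a nucleolar GTPase, had a slope of -0.20 (0.0907) and Mdm4 one of 0.11 (0.439).

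Genes of the ribosomal proteins themselves were tested in the same fit. Of 49 cytosolic ribosomal protein genes 6 fell and 0 rose (17.7% and 18.5% of all tested genes), the median slope was -0.01, and 9 were highest on day 1 (23.8%). Their median change from day 0 stayed between -0.04 and 0.02 over the course. Their median log2 level lay between 15.03 and 15.31, near the top of the scale of the array, and the part of signal saturation in this was not tested. Rps19, Rpl38 and Rps24 were the steepest of those that fell, with slopes of -0.77, -0.67 and -0.46. Rps19 was detected on 3 arrays only, so its slope rests in part on levels below detection. Rpl22 had a slope of 0.33 (adjusted p = 0.0557), and many such genes have near-identical pseudogenes that a probe may share. Of 70 mitochondrial ribosomal protein genes 12 fell and 1 rose, with a median slope of -0.10, and 42 were highest on day 1. Falls were about as common in this list as over all tested genes (17.7%), and rises were fewer (18.5%). Mrpl20 was the steepest of these, at 13.08, 13.39, 12.78, 12.39, 11.71 and 11.89 (slope -0.40 ± 0.082, adjusted p = 0.0123), followed by Mrps25, Mrps10 and Mrpl12 with slopes of -0.39, -0.35 and -0.34. The one that rose was Mrpl24 (slope 0.18, adjusted p = 0.0485).

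**Figure D5:**
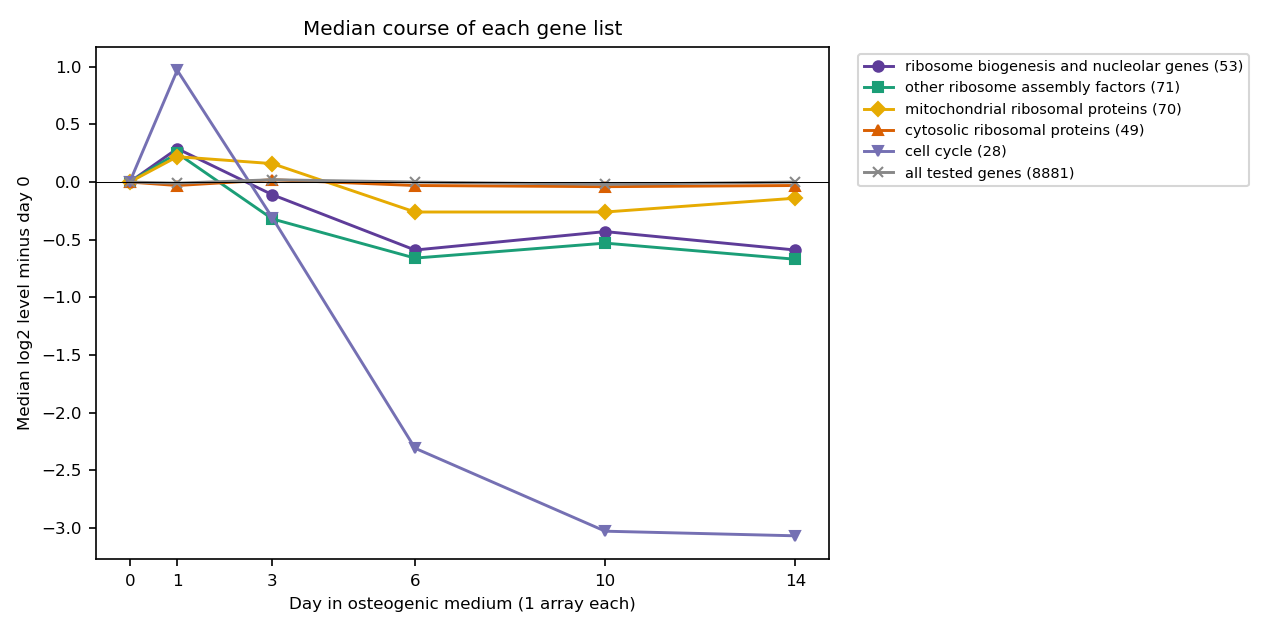
Median over the genes of each list of the log2 level minus that on day 0 (vertical axis), by day in osteogenic medium (horizontal axis, 1 array per day), with the number of genes in the legend. The set and the other assembly factors run together, at -0.59 and -0.67 on day 14, cytosolic ribosomal proteins stay near 0, and cell cycle genes go to -3.07. Of the 28 cell cycle genes 15 were detected on all 6 arrays.

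Other properties of the cultures moved along the same days. All 28 tested cell cycle genes were highest on day 1, 22 of them fell and 0 rose, led by Birc5, Tk1, Aurka and Cdc20 with slopes of -1.82, -1.77, -1.68 and -1.65. Those 4 genes were each detected on 4 arrays, and 15 of the 28 on all 6. The slopes and late levels of the list thus rest in part on levels below detection. The median level of the list was 0.97 above day 0 on day 1 and 3.07 below it on day 14, on the log2 scale. The summed linear level of the cell cycle list was 74010, 137400, 59170, 23480, 15860 and 16070 in day order. Of 7 adipocyte markers 4 had a named probe. All 4 rose, with a sum of 523.1, 1022, 2075, 8982, 11850 and 12580, but only 1 of them was detected on all 6 arrays. Of 7 osteoblast markers 2 had a named probe, Sp7 and Alpl, detected on 5 and 4 arrays. Both fell, with a sum of 1915, 3904, 1494, 388.8, 138.6 and 215. The slopes and sums of the adipocyte and osteoblast markers thus rest in part on levels below detection. Mesenchymal markers summed to between 129000 and 155000 on every array, a sum in which bright probes such as those of Vim and Thy1 weigh most. Of the 10 measured 3 fell (Cd44, Thy1 and Eng, with slopes of -0.70, -0.43 and -0.29) and 2 rose (Pdgfra and Cd34, with 0.60 and 0.94). Cd34 was detected on 4 arrays only. Of 10 leukocyte markers 2 had a named probe, Cd14 and Lyz2, detected on 5 and 4 arrays. They summed to between 276.3 and 829.2, and Cd14 rose (slope 0.66, adjusted p = 0.0108). The rises of Cd34 and Cd14 rest in part on levels below detection. Pericyte and smooth muscle markers summed to between 38100 and 61820, with 1 fall among 4 (Mcam, slope -0.56, detected on 3 arrays), and endothelial markers, among which Emcn was not detected, to between 470.9 and 1026 with no call. None of 5 epithelial markers had a named probe. The part of cell type or cell composition in the course of the ribosome biogenesis genes was not tested.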

How the data were processed

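Single-colour bead arrays, 6 in all and 1 per time point, were used, so each group holds 1 sample and p-values measure the scatter of 6 arrays about a line. The authors deposited linear signal intensities per probe, not normalized between arrays, with detection p-values per the file headers, and a table of signed folds over day 0, a ratio unit in which minus marks a fall. The scanner software and the scaling of the fold table were not given in any source used here. Signal columns carry short names and were tied to days by their equality with the series matrix (17785 of 17785 values on each array, tolerance 1e-04).

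Of 46649 rows 6 without and 30 with a repeated identifier were dropped, leaving 46613 probes. Symbols came from the platform annotation: 13805 probes had 1 gene symbol and 3 several; by gene identifier 13788 were found in the reference and 0 changed. Intensities were corrected with nec (offset 16), quantile normalized and log2 transformed with limma 3.58.1 (R 4.3.3). The brightest probe stood for each of 9751 genes, and 8881 were detected (p under 0.01) on at least 1 array. The two-sided test used lmFit and eBayes with an intensity trend and 4 residual degrees of freedom, with Benjamini-Hochberg adjustment at 0.05. On simulated data with 8881 genes, 91 of 100 slopes of 0.5 and 100 of 100 slopes of 1 were recovered, with 11 false calls. Recovery of smaller slopes, such as the median of -0.19 in the set, was not tested. Whether these numbers apply to the measured arrays was not tested either.

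The genes and all lists were chosen with earlier results of these data known, and Utp4, Utp25, Nop53 and Nol4l were given a role after the files were read. Genes named with values were, per role, the 3 steepest with a call, the flattest, those with a slope against the median of the role and those with discordant probes; the 3 greatest movers at each step; the genes with the highest and lowest mean level; the 4 steepest and up to 3 opposed calls of each other list; and Myc, Mycn, Ubtf and Rrn3. Others named for contrast, such as Imp4, Pes1, Exosc2 and Nolc1, were chosen after their values were seen. A printed fold from or to an array below detection used the lowest detected level there, as a bound, while slopes, ranks and counts used the levels as measured, with bounded counts given where they differ. Precision is limited by signal over background and by having 6 arrays. Alternatives were other scalings, no background correction, an offset of 50, other filters and probe rules, other time scales, a quadratic term, other eBayes settings and each array left out.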

Additional observations from a re-analysis of the deposited data

How the results depend on the processing

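No paired analysis was possible because each time point has 1 array. Over 12 other settings, 10 of the 23 trend calls passed throughout; over the 6 fits that left out an array 3 did, and Rrp9 and Utp4 passed in both. The number of genes that fell ranged from 3 to 22 and that of genes that rose from 0 to 3 with 1 array left out, and these were 10 and 1 with a quadratic term (9.66% and 10.9% of all genes). The share of all genes that fell also varied with the array left out, from 4.85% without day 14 to 17.8% without day 0. The cause of this was not tested. Without Nol4 and Nol4l, an alternative chosen after seeing the data, 1 gene rose. Median scaling gave 22 genes at least 1.5-fold higher on day 1 (20.4% of all genes), 7 at least 1.5-fold lower on day 3 (8.69%), and 11 and 9 at least 2-fold lower on days 6 and 10 (9.5% and 12.7%). No scaling gave 27 higher on day 1 (23.3%), 9 at least 2-fold lower on day 10 (12.7%) and 10 higher on day 10 than on day 6 (9.5%). No background correction gave 0 and 3 genes at least 1.5-fold higher on days 3 and 14 (11.7% and 21.7%), and the authors' deposited table also 0 and 3 (8.45% and 17.8% of its rows). Genes detected on all 6 arrays gave 3 on day 14 (22.3%), and so did folds taken as bounds, a setting chosen after seeing the data (23.2%), both through the loss of Nol4 and Nol7. The cause of the other moves was not tested. Slopes that turned sign all belonged to 7 genes without a call. With 1 array left out their lowest and highest values were -0.0105 and 0.0921 for Exosc10, -0.0164 and 0.0482 for Exosc7, -0.139 and 0.078 for Ncl, -0.0462 and 0.22 for Nol7, -0.0281 and 0.0666 for Polr1c, -0.0626 and 0.0145 for Rrp1, and -0.0106 and 0.0686 for Utp6. Exosc7 also turned with no scaling (-0.00559) and Rrp1 with median scaling (0.0165). The counts of genes highest on day 1, of the higher-lower-lower course and of late levels below early ones, the last 2 chosen after seeing the data, stayed within 37 to 43, 36 to 43 and 25 to 26. Dim probes limit Nol4, Nol7, Nol9 and Npm1: their slopes and ranks use levels as measured, in part below detection, and only printed folds to or from such arrays are bounds. Nol4l, Rrp36, Rrp8 and Utp14a were detected on all 6 arrays but came near the lowest detected level on some of them.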
